A study of Sus scrofa with 12 samples.

Results

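The genes described here are 9 interferon-stimulated genes of pig skeletal muscle, namely ISG15, MX1, MX2, OAS2, IFIT3, IFI44, RSAD2, IRF7 and IRF1. They were listed by symbol and matched to the rows of the count table through pig Ensembl gene names. Of the 9 genes, 8 had a row and all 8 were tested, among 14262 genes tested and 25880 genes in the table, whereas the identifier of IFIT3 had no row and that gene was not analysed here. The Semimembranosus muscle, a large muscle of the ham, was taken at slaughter from 12 Italian Large White pigs kept in one environment on one diet. Pigs 1 to 6 formed the high intramuscular fat (IMF) group and pigs 7 to 12 the low IMF group, with no other treatment or genotype named. The pigs were 229 to 249 days old and weighed 150 to 160 kg by their labels, with 3 females and 3 males in each group, and each library comes from 1 animal. The paper names the females as gilts and the males as barrows, and gives 9 different days of slaughter for the 12 pigs. Polyadenylated RNA was sequenced and the reads on each gene were counted, with 131048805 to 178013997 counts per pig.

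Interferons are secreted proteins that cells release when they sense foreign nucleic acid, and type I interferons act on almost every cell type through the receptor chains IFNAR1 and IFNAR2. The receptor activates the kinases JAK1 and TYK2 and a transcription factor complex that holds STAT2 and IRF9 and binds a DNA element called the interferon-stimulated response element, which switches on the interferon-stimulated genes. These genes are usually low in resting tissue, and their joint rise is the usual sign that a tissue has been exposed to interferon.

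The labels of the pigs carry a limit that touches each result below that uses a group or sex label. By the summed counts of 2 genes of the Y chromosome, at most 6 or at least 3734 in any pig, 6 of the 12 libraries had the Y-linked counts of the sex opposite to their label. These were pigs 3 and 5 of the high IMF group and pigs 7, 8, 9 and 10 of the low IMF group, so that 4 high IMF and 2 low IMF libraries were left when they were set aside. The comparison of the groups is given with and without these 6 libraries. A match of sex does not check the group label of a library, so the libraries kept are not a checked set. Read from the Y-linked counts, the males were pigs 3, 4 and 6 of the high and pigs 9, 10 and 11 of the low IMF group. The number of males in each group was thus the same as by the labels. The tissue label fitted the counts, since the 6 muscle fibre markers with counts summed to between 40262 and 69856 counts per 1000000 counts (CPM) per pig, led by ACTA1, the actin of the skeletal muscle thin filament.

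The DNA before the start of each gene is shown first, because the response element is the feature by which these genes are usually grouped. The element was searched on both strands as GAAANNGAAA, where N is any base, and, after the sequences had been seen, also as GAAANGAAA with a single base between the GAAA letters. The STAT site was searched as TTCNNNGAA. The window ran from 250 bases before to 50 bases after the start of each RefSeq gene of Sscrofa11.1, the build the authors aligned to. Where a gene had several transcript starts, the outermost was used, and starts further inside were given no window of their own. GAAANNGAAA stood in 3.56% of 19547 promoters, GAAANGAAA in 3.32%, either of them in 6.46%, and TTCNNNGAA in 7.10%. The 150 bases that end just before the RefSeq start are given 5′ to 3′ on the strand of the gene, with the bases of each match in capitals. ISG15, MX2, OAS2 and RSAD2 are shown because their windows hold a match of 1 of the 2 forms, and IFI44 and IRF1 because theirs hold none.
ISG15: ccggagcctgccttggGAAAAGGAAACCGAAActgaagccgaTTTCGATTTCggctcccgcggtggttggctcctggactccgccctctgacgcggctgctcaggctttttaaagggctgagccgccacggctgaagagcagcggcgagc
MX2: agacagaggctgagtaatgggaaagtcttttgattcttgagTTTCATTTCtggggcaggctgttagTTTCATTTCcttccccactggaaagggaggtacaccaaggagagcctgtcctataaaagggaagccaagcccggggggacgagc
OAS2: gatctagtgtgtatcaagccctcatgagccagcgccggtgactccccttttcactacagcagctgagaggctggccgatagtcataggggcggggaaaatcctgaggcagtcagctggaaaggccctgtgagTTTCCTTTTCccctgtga
RSAD2: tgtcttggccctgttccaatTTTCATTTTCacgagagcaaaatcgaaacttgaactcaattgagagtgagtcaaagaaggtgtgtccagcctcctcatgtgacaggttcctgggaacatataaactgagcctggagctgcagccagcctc
IFI44: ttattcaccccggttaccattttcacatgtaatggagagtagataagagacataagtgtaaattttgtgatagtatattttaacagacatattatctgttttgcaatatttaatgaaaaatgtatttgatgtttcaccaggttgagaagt
IRF1: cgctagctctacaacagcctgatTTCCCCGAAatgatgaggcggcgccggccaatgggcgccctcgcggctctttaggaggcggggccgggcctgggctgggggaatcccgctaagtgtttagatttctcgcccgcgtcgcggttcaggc
These windows lie at chr6:63363051-63363200 on the plus strand for ISG15, at chr13:204798483-204798632 on the plus strand for MX2, at chr14:38847698-38847847 on the minus strand for OAS2, at chr3:128897810-128897959 on the minus strand for RSAD2, at chr6:134649858-134650007 on the minus strand for IFI44 and at chr2:134783647-134783796 on the minus strand for IRF1. ISG15 held 3 matches of GAAANNGAAA, of which the first and the second overlap, while OAS2 and RSAD2 held 1 each. MX2 held no match of that form and 2 matches of GAAANGAAA. IFIT3 held 2 matches of GAAANNGAAA. No match of either form was found in the windows of IFI44, IRF7 and IRF1, and IRF1 held 1 match of TTCNNNGAA. For IRF7, the curated transcript starts inside the gene, past the end of the window, so the DNA before that start was not searched. GAAANNGAAA was thus present in the windows searched for 4 of the 9 genes. With GAAANGAAA, which was added after the sequences had been seen, 6 of the 9 held 1 of the 2 forms. MX1 and MX2 counted only by the added form, so the 6 of 9 was partly set by that choice. In the other lists, 1 of the 2 forms was found in 17 of 38 further interferon-stimulated genes and in 8 of 17 interferon-gamma genes with a promoter. It was found in 5 of 15 sensors and adaptors, 2 of 8 interferon genes, 3 of 19 early and inflammatory genes and 1 of 7 negative regulators. It was found in 0 of 6 interferon receptor genes and 0 of 6 JAK-STAT genes. These matches are letters in a window and no binding was measured.

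All 8 genes were detected in every pig at a low level, from 89 counts for IRF7 to 1860 counts for OAS2 in a single pig. Per kilobase of RefSeq exon, the mean level over the 12 pigs was 3.28 ± 1.31 CPM per kilobase (SD, n = 12) for ISG15 and 2.44 ± 1.29 (SD, n = 12) for MX2. It was 2.05 ± 0.511 (SD, n = 12) for IRF1, 1.78 ± 0.721 (SD, n = 12) for IFI44 and 1.58 ± 0.793 (SD, n = 12) for OAS2. RSAD2, at 0.858 ± 0.637, MX1, at 0.688 ± 0.291, and IRF7, at 0.461 ± 0.130 CPM per kilobase (SD, n = 12), were the lowest of the 8. Each neighbouring pair in this order differed by less than the larger SD of the pair. The order of neighbours was the most regular from OAS2 to RSAD2, where OAS2 was the higher gene in 11 of 12 pigs, and the least regular from IRF1 to IFI44 and from RSAD2 to MX1, with 7 of 12 pigs each.

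The effectors, whose products act against viruses directly, were followed pig by pig. ISG15, a ubiquitin-like protein that is attached to other proteins, lay between 1.78 and 4.12 CPM with a median of 2.29 in the high IMF group and between 1.13 and 1.85 CPM with a median of 1.43 in the low IMF group. Pig 5 had the highest value and pig 10 the lowest, and the groups overlapped only at pig 4 of the high IMF group and pigs 11 and 12 of the low IMF group. MX1, a dynamin-like GTPase that blocks virus replication, lay between 1.20 and 2.88 CPM with a median of 2.55 in the high and between 0.793 and 1.90 CPM with a median of 1.34 in the low IMF group. MX2, its neighbour on chromosome 13 and a GTPase of the same family, lay between 3.54 and 9.78 CPM with a median of 6.90 in the high and between 1.74 and 5.52 CPM with a median of 2.95 in the low IMF group. Both genes were highest in pig 2, and high IMF pigs 3 and 4 fell within the range of the low IMF group for both.

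RSAD2, or viperin, which makes a nucleotide that stops viral polymerases, lay between 1.32 and 7.22 CPM with a median of 2.33 in the high and between 0.808 and 2.88 CPM with a median of 1.43 in the low IMF group. The high IMF mean rested on pigs 2 and 5, at 4.74 and 7.22 CPM, and the other 4 high IMF pigs lay within the low IMF range. OAS2, which senses double-stranded RNA and makes the oligoadenylate that activates RNase L, lay between 2.38 and 14.7 CPM with a median of 7.50 in the high and between 3.08 and 6.42 CPM with a median of 5.27 in the low IMF group. Pig 6 of the high IMF group stood far above and pig 4 of the same group below every other pig. IFI44, an interferon-induced protein associated with microtubules, lay between 1.94 and 3.55 CPM with a median of 2.43 in the high and between 1.05 and 3.75 CPM with a median of 1.56 in the low IMF group, and its highest pig was low IMF pig 12.

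The transcription factors varied less by the ratio of the highest to the lowest pig. IRF7, the factor that drives the interferon alpha genes, lay between 0.700 and 1.24 CPM with a median of 1.09 in the high and between 0.575 and 1.37 CPM with a median of 0.773 in the low IMF group. Its highest pig was low IMF pig 8 and its 3 lowest were low IMF pigs 10 and 12 and high IMF pig 5. IRF1, a factor induced by interferon gamma, lay between 4.63 and 7.44 CPM with a median of 5.51 in the high and between 2.64 and 6.07 CPM with a median of 4.42 in the low IMF group, with pig 6 the highest and pig 7 the lowest. The ratio of the highest to the lowest pig was 8.93 for RSAD2, 6.19 for OAS2, 5.63 for MX2, 3.64 for both ISG15 and MX1, 3.58 for IFI44, 2.82 for IRF1 and 2.37 for IRF7. The SD of log2 CPM over the 12 pigs lay between the 71.6th percentile of all genes tested, for ISG15, and the 91.0th, for RSAD2, among the effectors, and at the 62.8th and 59.1st percentiles for IRF7 and IRF1. The biological coefficient of variation was also divided by the trend for genes of like abundance. By that ratio ISG15 was at the 50.1st percentile, IRF7 at the 43.7th and IRF1 at the 59.8th. The other effectors lay between the 75.1st, for MX1, and the 94.1st, for RSAD2.

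**Figure D1:**
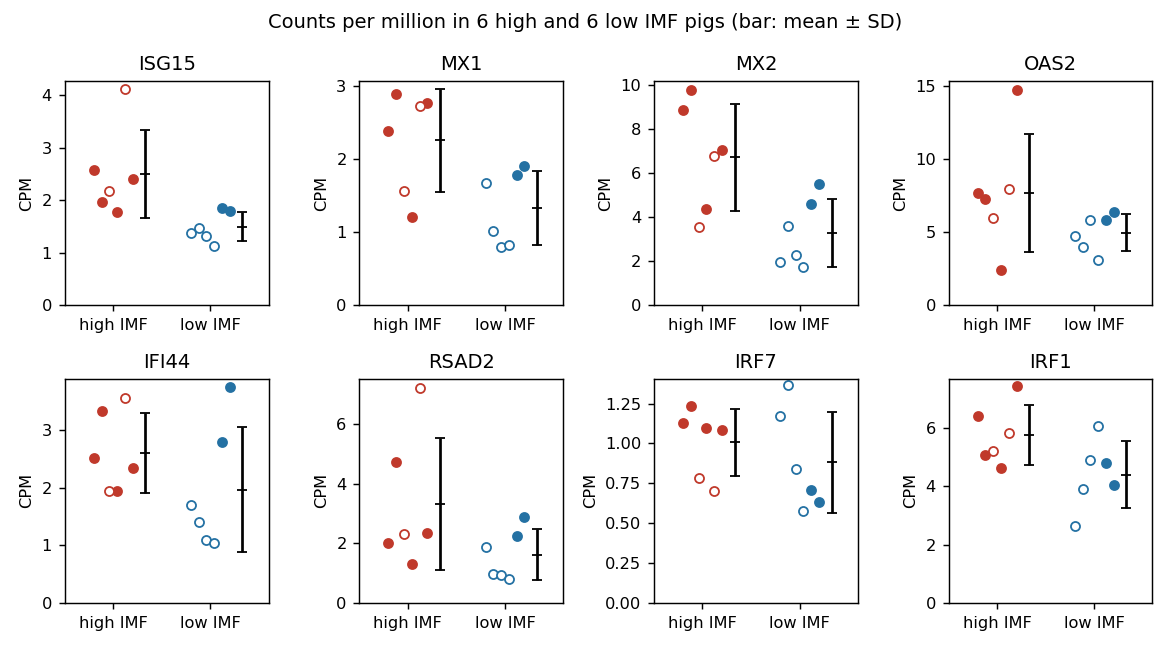
CPM (y axis) of the 8 genes in the high IMF (red) and low IMF (blue) pigs, one point per pig in the order of the pig numbers, with the mean and SD of the 6 pigs beside them. Open points are the 6 libraries whose Y-linked counts went against the sex label, and the groups overlapped for every gene.

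The effectors moved together from pig to pig. In pigs 2, 5 and 6, all 6 effectors were above the median of the 12 pigs, and in pigs 4, 7, 8, 9 and 10 none was. Pigs 1, 11 and 12 had 5 of 6 above it and pig 3 had 3. The median deviation of the 6 effectors from the median pig, on the log2 scale, was 0.69 in pigs 2 and 5, 0.52 in pig 6, 0.42 in pig 1, 0.22 in pig 12 and 0.04 in pig 11. It was −0.06 in pig 3, −0.32 in pig 7, −0.33 in pig 4, −0.58 in pig 8, −0.96 in pig 9 and −1.03 in pig 10. The pigs thus formed a graded series in which no single animal stood apart at the high end. The highest pigs lay 1.61- and 1.62-fold above the median pig by this measure, and the lowest lay at 0.488 of it. Counted from the highest pig, pig 5 ranked between 1 and 4 for each effector, and pig 10 ranked 11 or 12 for each.

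**Figure D2:**
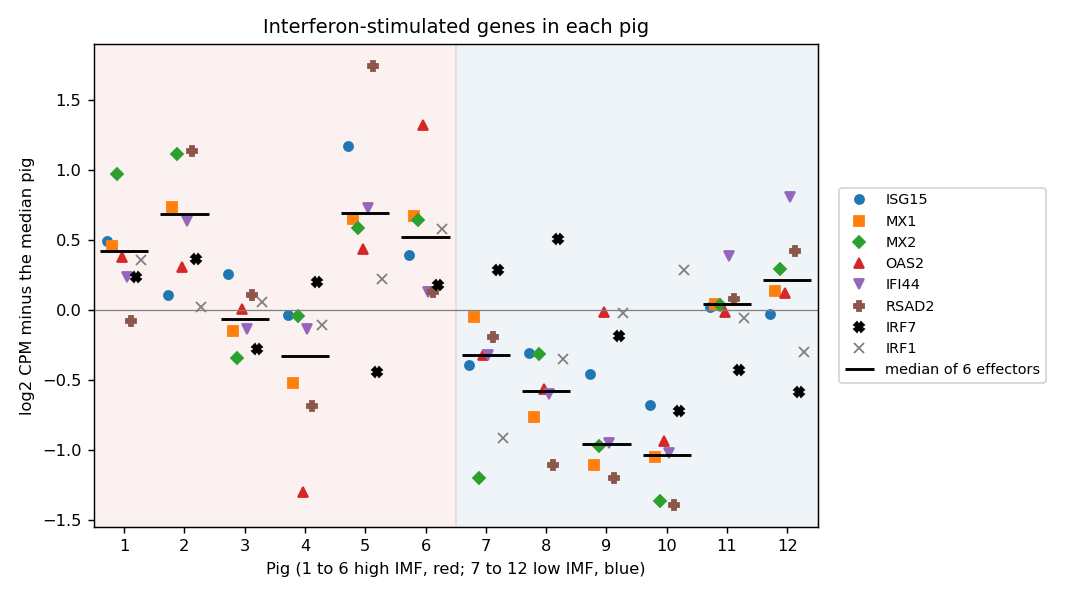
Log2 CPM of each gene minus its median over the 12 pigs (y axis) for each pig (x axis), with a bar at the median of the 6 effectors. All effectors lay above 0 in pigs 2, 5 and 6 and below 0 in pigs 4, 7, 8, 9 and 10, while IRF7 lay on both sides of 0 in each of these sets of pigs and IRF1 lay above 0 in the first and on both sides in the second.

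Over the 12 pigs, the 15 pairs of effectors had a median Spearman's rho of 0.797, with a range of 0.71 to 0.92, and a median Pearson's r of 0.754. By comparison, the median rho over the 101695191 pairs of genes tested was 0, with 5% of pairs below −0.559 and 5% above 0.559, and 0.441% of all pairs reached the effector median. The pairs share the same 12 libraries, so these values are given as a description. After the mean of each IMF group was taken from its pigs, the 15 pairs kept a median rho of 0.629, from 0.51 to 0.90. Within the 6 low IMF pigs the median rho of the effector pairs was 0.829, and within the 6 high IMF pigs it was 0.60. When the 2 pigs farthest from the median of the first gene of a pair were left out, r lay between 0.49 and 0.83. With only the 6 libraries that matched their sex label, the median rho was 0.714.

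The closest pairs were IFI44 with RSAD2, at a rho of 0.92, and MX1 with RSAD2, at 0.88. The neighbours MX1 and MX2 followed with 0.87. Against the mean z-score of the other members, MX1 had a Pearson's r of 0.92 and ranked 1 among the 14255 genes placed on that measure, and MX2 ranked 5 with 0.90. ISG15 ranked 16 with 0.83, RSAD2 29 with 0.79, IFI44 37 with 0.77 and OAS2 123 with 0.69. IRF1 ranked 2771 with 0.30 and IRF7 6891 with 0.03. The pairs with IRF7 had a median rho of −0.07 and the pairs with IRF1 one of 0.36. After removal of the group means these medians were −0.15 and −0.13, in that order. For IRF1 the median was 0.31 within the high and −0.49 within the low IMF pigs. With single effectors over all pigs, IRF1 reached a rho of 0.58 with OAS2 and 0.53 with ISG15, beside 0.10 with IFI44, all below the lowest rho between 2 effectors. With the group means removed, these 3 values were 0.42, 0.17 and −0.18.

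**Figure D3:**
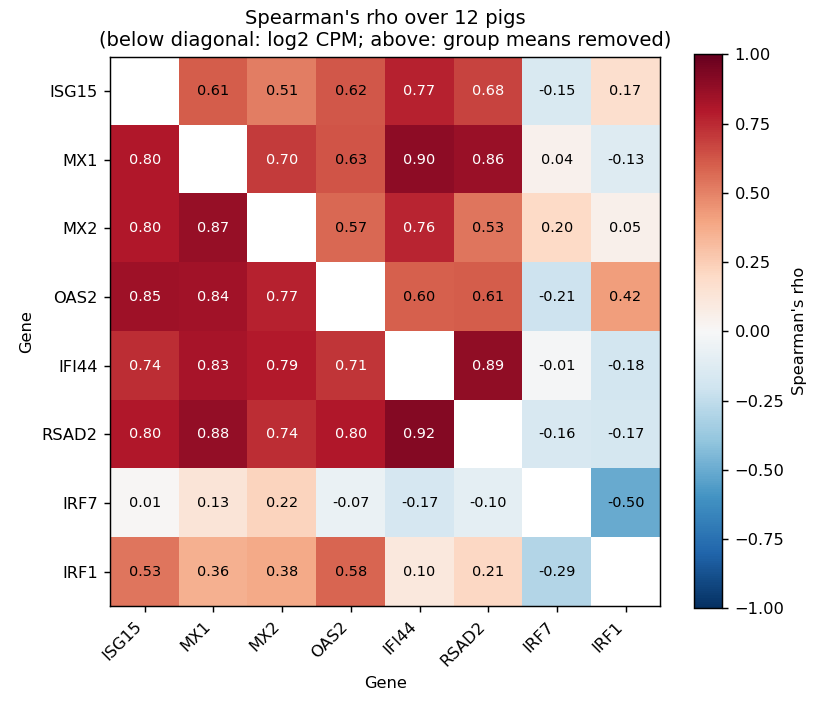
Spearman's rho over the 12 pigs for each pair of the 8 genes, from log2 CPM below the diagonal and after removal of the group means above it. The block of the 6 effectors ranges from 0.71 to 0.92 below and from 0.51 to 0.90 above the diagonal, and the pairs of the effectors with IRF1 range from 0.10 to 0.58 and those with IRF7 from −0.17 to 0.22 below it.

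The 10 genes tested whose log2 CPM followed the mean z-score of the 8 members most closely were KYNU, ARHGAP22, IFI44L, CD1B, HELLS, HERC5, EIF2AK2, LRRC49, TBCK and EPSTI1, with Pearson's r from 0.86 for EPSTI1 to 0.90 for KYNU over the 12 pigs. Of these, IFI44L, a paralog of IFI44, HERC5, the ligase that attaches ISG15 to proteins, EIF2AK2, the RNA-activated kinase PKR, and EPSTI1 are interferon-stimulated. They are 4 of the 10, from the list of other interferon-stimulated genes, of which 31 were among the 14262 genes tested. CD1B, LRRC49 and EPSTI1 had the lowest levels of the 10, at means of 0.217, 0.294 and 0.406 CPM in the high IMF group. In the low IMF group these 3 were at 0.0932, 0.167 and 0.230 CPM. KYNU is an enzyme of tryptophan breakdown and CD1B presents lipids to T cells. After removal of the group means, r lay between 0.68 for TBCK and 0.94 for ARHGAP22.

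The question for the group comparison was whether the genes differed between high and low IMF muscle, and none passed the test. A gene was called when edgeR's quasi-likelihood test gave an adjusted p at or under 0.05 over the 14262 genes together with an absolute log2 fold change of at least 0.58. By this rule 0 of the 8 genes were called, against 0% of all genes tested, although 1486 of the 14262 had a raw (unadjusted) p of 0.05 or less. By DESeq2's Wald test on all genes with at least 1 count, 0 of the 8 and 65 genes in all were called. In bulk muscle, fewer cells that express a gene and less RNA per cell cannot be told apart.

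All 8 fitted log2 fold changes, low over high IMF, were below 0, that is, higher in the high IMF group, against 51.6% of all genes tested. Their median was −0.68, against −0.008 for all genes. At a raw p of 0.05 or less, 4 of the 8 genes were higher in the high IMF group, against 5.04% of all genes tested, and 0 of the 8 were higher in the low IMF group, against 5.38%. The groups overlapped in log2 CPM for each of the 8, against 0.659% of all genes tested whose groups did not overlap. The 6 effectors varied together, as described above, so their differences are not independent of each other.

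MX2 was at 6.73 ± 2.44 CPM (SD, n = 6) in the high and 3.29 ± 1.55 CPM in the low IMF group (SD, n = 6), a fitted fold of 2.04. Its log2 fold change was −1.03 ± 0.32 (SE), with an adjusted p of 0.419 by edgeR's quasi-likelihood test. RSAD2 was at 3.33 ± 2.23 and 1.62 ± 0.849 CPM (SD, n = 6) in the same order, with a log2 fold change of −1.04 ± 0.43 (SE) and an adjusted p of 0.441 by the same edgeR test. Without pig 5 the log2 fold change of RSAD2 was −0.65, and its raw p was above 0.05 without pig 2, 5, 8, 9 or 10. ISG15 had the smallest p of the 8, with 2.50 ± 0.841 and 1.49 ± 0.278 CPM (SD, n = 6), a log2 fold change of −0.75 ± 0.21 (SE) and an adjusted p of 0.367 by edgeR's test. The difference of ISG15 in log2 CPM had a p of 0.00649 by the exact permutation test over all arrangements of the 12 pigs, two-sided and not adjusted for the 8 genes, and by the same exact test the other 7 genes had p from 0.0238, for MX2, to 0.359, for IRF7. MX1 was at 2.25 ± 0.704 and 1.33 ± 0.507 CPM (SD, n = 6), with a log2 fold change of −0.76 ± 0.29 (SE) and an adjusted p of 0.434 by edgeR's test.

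For the other 4 genes with all 12 pigs, the raw p of edgeR's test was above 0.05. OAS2 was at 7.67 ± 4.03 and 4.98 ± 1.28 CPM (SD, n = 6), with a log2 fold change of −0.62 ± 0.32 (SE) that became −0.33 without pig 6 and −0.81 without pig 4, in which case its raw p was 0.05 or less. IFI44 was at 2.60 ± 0.689 and 1.97 ± 1.08 CPM (SD, n = 6), with a log2 fold change of −0.40 ± 0.31 (SE). Without pig 12 it was −0.69, with a raw p of 0.05 or less. IRF1 was at 5.75 ± 1.03 and 4.39 ± 1.16 CPM (SD, n = 6), with a log2 fold change of −0.39 ± 0.18 (SE), and its raw p was 0.05 or less without pig 2, pig 4 or pig 10. IRF7 was at 1.01 ± 0.212 and 0.882 ± 0.318 CPM (SD, n = 6), and 2 SE around its log2 fold change of −0.19 ran from −0.69 to 0.30. It was −0.35 without pig 8 and between −0.13 and −0.10 without pig 2, pig 10 or pig 12. The adjusted p of these 4 genes by edgeR's quasi-likelihood test lay between 0.481 and 0.823.

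The size of these differences depended on the 6 libraries that went against their sex label. Without them, with 4 high against 2 low IMF pigs, the log2 fold change was −0.25 for ISG15, −0.32 for MX1, −0.56 for MX2, −0.38 for OAS2 and −0.01 for RSAD2. That of IFI44 turned to 0.38, that of IRF1 was −0.40 and that of IRF7 was −0.76, with SE from 0.24 to 0.59. Only IRF7 then had a raw p of 0.05 or less by edgeR's test, beside 607 of the 14972 genes tested in that fit. The 4 low IMF pigs set aside were the 4 with no effector above the median, and the 2 low IMF pigs kept had 5 of 6 above it. With the sex read from the Y-linked counts as a covariate and all 12 pigs, the log2 fold changes of the 6 effectors lay between −0.39 and −0.99. In that fit 5 of the 8 genes had a raw p of 0.05 or less by edgeR's test, beside 1713 of all 14262 genes. Without the covariate 1486 of all genes did. Whether these pigs also differ from their group label was not tested.

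**Figure D4:**
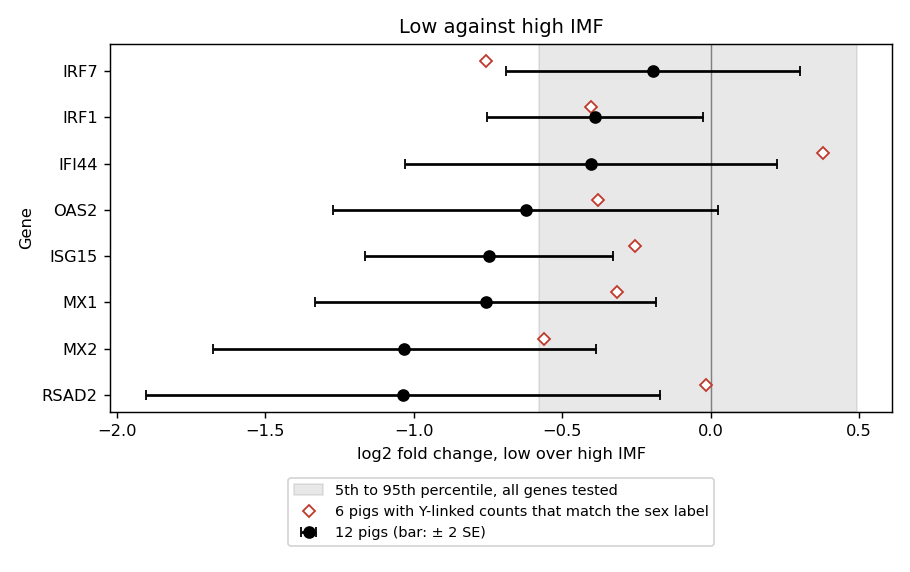
Log2 fold change, low over high IMF (x axis), of the 8 genes with 12 pigs (black, bar of 2 SE to each side) and with the 6 libraries that matched their sex label (open diamonds). All black points lie below 0, the diamonds lie nearer to 0 for the effectors other than IFI44, which lies above 0, and the grey band holds the 5th to 95th percentile of all genes tested.

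The 4 interferon genes with a row were close to the limit of counting, and the interferon receptors did not vary with the members. Of 12 interferon genes listed, those of the alpha, omega and lambda families had no row, so their levels are not known here. IFNB1, IFNG, IFNE and IFNK had a row, none was tested for lack of counts, and the highest count of any in a pig was 11, for IFNG. Their summed level was at most 0.167 CPM, in pig 6, pig 7 had 0 counts, and at such counts no relation to the members is drawn. Of the receptor genes, 4 were tested and 0 had a raw p of 0.05 or less in either direction by edgeR's test, with log2 fold changes between −0.17 and 0.20. The most abundant by count was IFNGR2, a chain of the interferon gamma receptor, at 23.6 ± 5.24 CPM (SD, n = 6) in the high and 27.1 ± 7.01 CPM in the low IMF group (SD, n = 6). IFNAR1, the chain of the type I receptor that binds TYK2, had the highest r of this list with the mean z-score of the members, 0.18, and a log2 fold change of −0.16. The median r of the 4 receptor genes on this measure was −0.05.

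The JAK-STAT genes had a median log2 fold change of −0.01. At a raw p of 0.05 or less, 1 of 6 was higher in the high IMF group, beside 5.04% of all genes tested. This was JAK2, a kinase used by the interferon gamma receptor, at 34.4 ± 4.51 CPM (SD, n = 6) in the high and 27.3 ± 2.70 CPM in the low IMF group (SD, n = 6), with an adjusted p of 0.419 by edgeR's test. STAT2 and IRF9, parts of the complex that binds the response element, had log2 fold changes of −0.07 and −0.01. JAK1, the most counted of the list, was at 170.2 ± 23.8 CPM and 184.6 ± 20.2 CPM (SD, n = 6).

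Among the sensors and adaptors that detect foreign nucleic acid, 15 of 16 log2 fold changes were below 0 with a median of −0.27, against 51.6% of all genes tested below 0. Of the 16, 1 was higher in the high IMF group at a raw p of 0.05 or less, a share near the 5.04% of all genes. This was RIGI, a cytosolic RNA sensor, with a log2 fold change of −0.33 ± 0.14 (SE) and an adjusted p of 0.441 by edgeR's test. IFIH1, the RNA sensor MDA5, followed the members most closely in this list, with an r of 0.80, and its log2 fold change was −0.34. The most counted of them, MAVS, the mitochondrial adaptor of both sensors, had a log2 fold change of 0.11. Of 7 negative regulators tested, 0 had a raw p of 0.05 or less. USP18, which removes ISG15 from proteins and blocks the receptor, had an r of 0.69 with the members and a log2 fold change of −0.64. PIAS1, an inhibitor of STAT signalling and the gene of this list with the highest mean count, was at 36.0 ± 5.37 CPM in the high and 31.9 ± 3.35 CPM in the low IMF group (SD, n = 6).

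The list of other interferon-stimulated genes came closest to the members. Of its 31 tested genes, 15 had an r of at least 0.5 with the mean z-score of the members, beside 7.06% of all genes tested, and the median r was 0.49. In the group comparison, 22 of the 31 log2 fold changes were below 0, against 51.6% of all genes tested, with a median of −0.24. Of the 31, 0 were called, and 5 had a raw p of 0.05 or less. All 5 were higher in the high IMF group, beside 5.04% of all genes tested. IFI44L was at 6.29 ± 1.16 CPM and 3.81 ± 1.17 CPM (SD, n = 6) in the high and low IMF groups, with a log2 fold change of −0.72 ± 0.20 (SE) and an adjusted p of 0.367 by edgeR's test. PLSCR1, a phospholipid scramblase, IFIT5, which binds viral RNA, and HERC5 had log2 fold changes of −0.40, −0.36 and −0.80, and EPSTI1 one of −0.82. ZNFX1, a helicase that senses viral RNA and the most counted of the list, had a log2 fold change of 0.27. Without the 6 libraries that went against their sex label, the median of this list was 0.16.

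Of the 16 interferon-gamma genes tested, 11 log2 fold changes were below 0, against 51.6% of all genes tested, and the median was −0.15. At a raw p of 0.05 or less, 1 of the 16 was higher in the high IMF group, a share near the 5.04% of all genes. This was IDO1, which breaks down tryptophan, at 0.154 ± 0.0803 CPM in the high and 0.0483 ± 0.0422 CPM in the low IMF group (SD, n = 6), with at most 38 counts in a pig. GBP2, an interferon-induced GTPase, had the highest r with the members, 0.63. TAP1, the antigen peptide transporter with the highest mean count of the list, had a log2 fold change of 0.12. The median r of the list was 0.23. Without the 6 libraries that went against their sex label, the median log2 fold change was 0.14 for these genes, −0.14 for the sensors and adaptors, 0.17 for the JAK-STAT genes and −0.31 for the receptors, all lists with no called gene.

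**Figure D5:**
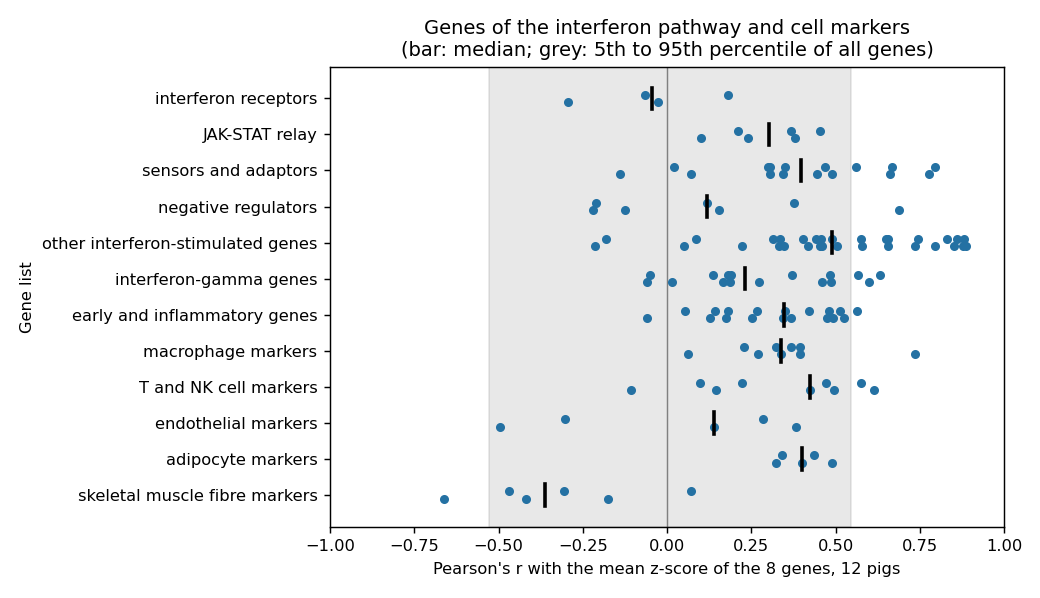
Pearson's r over the 12 pigs between each gene and the mean z-score of the 8 members (x axis), by gene list (y axis), with a bar at the median of each list and a grey band for the 5th to 95th percentile of all genes. The other interferon-stimulated genes have a median of 0.49 and the receptors one of −0.05.

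Several other measures of the libraries moved with the members to a smaller degree. The summed level of the 11 counted T and NK cell markers lay between 3.02 and 7.72 CPM in the high and between 2.84 and 3.80 CPM in the low IMF group, with an r of 0.53 with the members over the 12 pigs. Their defining genes CD3D and CD3E averaged 0.294 and 0.310 CPM over the 12 pigs, and CD2, the highest of the list, 0.804 CPM. The 10 macrophage markers summed to between 80.7 and 187 CPM in the high and between 90.3 and 160.7 CPM in the low IMF group, with an r of 0.34, led by CD163, a scavenger receptor. The adipocyte markers, led by ADIPOQ, the hormone adiponectin, ranged from 41.9 to 118.1 CPM in the high and from 19.7 to 127.3 CPM in the low IMF group, with an r of 0.46. Of the 5 adipocyte markers tested, 2 had a log2 fold change below 0, and the median was 0.14. This median lay between −0.16 and 0.35 with 1 pig left out, and was 0.72 without the 6 libraries that went against their sex label. The B cell, neutrophil, endothelial and muscle fibre markers summed to values with an r of 0.39, −0.06, −0.18 and −0.43 with the members. At a raw p of 0.05 or less, 3 marker genes had the higher level in high IMF muscle, beside 5.04% of all genes tested. KLRK1, an activating receptor of NK and T cells, was 1 of 9 in its list, with a log2 fold change of −1.24. JCHAIN, the joining chain of antibodies, was 1 of 3 B cell markers tested, with −0.47. AIF1, a protein of activated macrophages, was 1 of 9 in its list, with −0.46. Its r of 0.73 with the members was the highest of the macrophage markers, whose median r was 0.34. CDH5, the cadherin of endothelial junctions, was 1 of 5 in its list and had the higher level in low IMF muscle, with 0.55. In that direction 5.38% of all genes passed. Of the neutrophil, adipocyte and muscle fibre markers, 0 passed in either direction. Of the 9 T and NK cell markers tested, 8 had a log2 fold change below 0, with a median of −0.44, and of the 9 macrophage markers tested 7 did, with a median of −0.25. Pig 6, one of the 3 pigs with all effectors above the median, stood apart in these markers. Its neutrophil markers summed to 6.62 CPM, against 0.153 to 1.40 CPM in the other pigs, and its macrophage and T and NK cell sums were the highest of the 12. Without pig 6, the median log2 fold change of the 8 members was −0.56.

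The early and inflammatory genes had a median log2 fold change of −0.83, and 10 of 18 were higher in the high IMF group at a raw p of 0.05 or less, against 5.04% of all genes tested, led by the chemokine CXCL8, the cytokine IL6, EGR2 and IER2. CXCL8 was at 4.17 ± 9.48 CPM in the high and 0.119 ± 0.0746 CPM in the low IMF group (SD, n = 6). IL6 was at 7.02 ± 13.6 and 0.426 ± 0.382 CPM (SD, n = 6), so for both genes the high IMF SD exceeded the mean. The highest mean count was that of ATF3, a stress-induced factor with a log2 fold change of −0.31, and the highest r with the members was 0.56, for PTGS2, a prostaglandin synthase. Without pig 6 the median log2 fold change was −0.46, and without the 6 libraries that went against their sex label it was −1.54. Their summed level was highest in pig 6, at 2342 CPM, and had an r of 0.32 with the members. After removal of the group means, their median r with the members was 0.06, whereas that of the other interferon-stimulated genes was 0.61. The mean z-score of the 8 members had an r of −0.32 with the total counts of a library, of 0.11 with the TMM factor, of 0.42 with the share of the most counted gene and of 0.17 with the labelled age. The part of these measures in the differences of the interferon-stimulated genes was not tested.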

How the data were processed

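Libraries of polyadenylated RNA, which keep the strand, were sequenced 2 to a lane. Trimming was done with Trimmomatic, alignment to Sscrofa11.1 with HISAT2, assembly with StringTie and counting with HTSeq, and the authors deposited the raw counts of each Ensembl gene in each pig. How strand and multiply aligned reads were treated in the counting is not given in the sources used here, so that paralogs such as MX1 and MX2 or IFI44 and IFI44L carry some uncertainty. FastQC and DESeq2 are also named in the submitters' processing notes.

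Groups came from the sample labels. Genes kept by filterByExpr were scaled by TMM, the edgeR normalization, and compared, with no covariate, by edgeR's quasi-likelihood test (version 4.0.16 under R 4.3.3). P-values were adjusted by Benjamini-Hochberg over 14262 genes. Log2 CPM used a prior count of 2. A z-score is a gene's log2 CPM minus its mean over the 12 pigs, divided by its SD. Correlations are given without p-values because pairs share libraries. Exon lengths and promoters were read from RefSeq on Sscrofa11.1. The tests were tried on simulated data.

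The members, lists, motifs and tests were chosen with earlier results of these data known. Named genes are the members, the 10 genes closest to them, and, in each pathway list, up to 4 genes at a raw p of 0.05 or less, the most counted gene and the gene closest to the members, and the highest gene of a marker list. STAT2, IRF9, CD3D and CD3E are named for their roles, and AIF1, CDH5, JCHAIN, KLRK1 and SOCS3 after their values were seen. Alternatives were other scalings (DESeq2 size factors, upper quartile), DESeq2's Wald test (DESeq2 1.42.0), limma-voom (limma 3.58.1), other filters on low counts, a robust fit, sex as a covariate, and pigs left out. The form GAAANGAAA was added after the sequences had been seen. The smallest adjusted p over all genes was 0.190. Counting error is small beside the common biological coefficient of variation between pigs, 0.332. Some items are not reported here.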

Additional observations from a re-analysis of the deposited data

Results flagged for a closer look

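Among 50 sets of 6 pigs checked for a pig far from the others of its group, 4 had one, and chance alone gives about 1 in 20. None concerned a member. The summed level of the interferon genes with a row, as log2 of the CPM plus 0.01, was −2.50 in pig 6, far above the other high IMF pigs, and −6.64 in pig 7, which had 0 counts, far below the other low IMF pigs. These sums rest on at most 11 counts of a gene in a pig. In pig 6, the log2 of the summed CPM of the interferon receptors, 6.61, and that of the negative regulators, 7.81, were also far above the other high IMF pigs. SOCS3, an inhibitor of cytokine signalling, ranged from 538 to 21521 counts over the 12 pigs.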

How the results depend on the processing

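Of the 22 alternatives to the comparison of the groups, none called a member, and 175 of the 176 log2 fold changes of the members stayed below 0. The exception was IFI44, at 0.38 without the 6 libraries that went against their sex label. The median log2 fold change of the members ranged from −0.82, without pig 4, to −0.35, without those 6 libraries. Over all genes, DESeq2's Wald test called 65, and leaving out 1 pig called 0 to 1, the 1 without pig 5 or pig 10. The median rho of the 28 pairs of members, 0.727, was 0.612 without TMM scaling, 0.521 after removal of the group means and 0.543 without the 6 libraries, and their median Pearson's r was 0.557. It was 0.677 to 0.75 with 1 pig left out and 0.790 without IRF1. The median rho of the 15 effector pairs lay between 0.629 and 0.836 under every alternative run. Why these values moved was not tested. No paired analysis was possible because each pig has its own number. At the spread between these pigs, log2 fold changes of −1.03 and −1.04 did not pass the adjusted threshold.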
